A study of Mus musculus with 47 samples.

Results

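Libraries of the mouse mammary gland labelled as basal cells were compared between early involution (Id2, day 2 after the litter was removed) and completed involution (Iw4, week 4), although those labelled Id2 were far below the other basal libraries in most basal markers. The members are the 3 basal libraries labelled Iw4 (replicates 3, 5 and 6) and the 3 labelled Id2 (replicates 2, 4 and 6), picked out by label with no measured value used, which makes 6 of the 46 libraries with values. All mice were wild-type females of the FVB/N strain, and no agent, transgene or Cre was used. Dams nursed until lactation day 10 and were then force weaned, and glands of several mice were pooled for each sort, so a replicate is an independent pool and not an animal. Basal cells were gated by flow cytometry as CD24+ CD29hi after removal of cells carrying CD11b, CD45, Ly-6G/Ly-6C, Ter-119, CD31 or CD140a (the antibody against the last is listed as one to the human protein), gates were adjusted slightly at each sort, and another population of unknown identity that appeared in lactating and involuting glands was kept outside the gates. RNA of luminal (CD24+ CD29lo) and basal cells was measured at 8 time points in all, and 4 other groups of 3 libraries each are compared below: luminal cells of the same sorts at Id2 and at Iw4, and basal cells of non-pregnant mice of 10 weeks (W10) and of 4 months (M4). Basal libraries of pregnancy and lactation enter as ranges and single values only.

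Involution is the return of the gland to a resting state once milk is no longer removed. The secretory luminal cells die and are cleared in a programme in which the cytokine LIF and the transcription factor STAT3 take part, while proteases remodel the matrix and fat cells refill the pad. Basal cells, most of them contractile myoepithelial cells that squeeze milk from the alveoli in answer to oxytocin, line the outside of the ducts, carry keratins 5 and 14 and the transcription factor p63, rest on the basement membrane and remain to enclose the epithelium of the resting gland.

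The libraries labelled Id2 basal held 8485798, 11204244 and 7382662 reads on genes for replicates 2, 4 and 6, and the Iw4 basal libraries held 4398806, 5763600 and 4717337 for replicates 3, 5 and 6. A level of 3 reads, below which a value was read as no more than a floor, was 0.468, 0.291 and 0.485 CPM (reads of a gene per 1e06 reads of the library, after scaling) at Id2 and 0.535, 0.403 and 0.490 CPM at Iw4. This floor covers counting error only. All values below are given in this order of replicates, and fold changes are log2 differences of CPM + 1, positive where Iw4 was higher.

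The libraries labelled Id2 basal differed from each other more than those of the other basal groups. Over 10580 genes with a mean of at least 5 CPM, the correlation across genes, which are not independent replicates, was 0.842 between Id2 replicates 2 and 4, 0.799 between 2 and 6 and 0.894 between 4 and 6, and between 0.943 and 0.946 among the Iw4 basal libraries. The median SD of a gene on the log2 scale was 0.474 at Id2 (n = 3) and 0.256 at Iw4 (n = 3), and between 0.252 and 0.378 in the basal groups not labelled Id2. Between the groups the correlations ran from 0.657 to 0.766, with Id2 replicate 4 the closest to Iw4. The Id2 libraries were sequenced in lane 3 from RNA amplification batch 4 and the Iw4 libraries in lane 7 from batches 1, 2 and 3, so time point, lane and batch cannot be told apart in this comparison.

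Defining basal markers were far below the other basal libraries in all 3 libraries labelled Id2 basal. Krt5, a keratin of the basal layer, measured 4.68, 156 and 6.95 CPM in them, against a lowest value of 779 CPM over the 19 basal libraries not labelled Id2. Trp63, which encodes p63, measured 9.99, 26.6 and 3.39 CPM against a lowest value of 457 CPM. The luminal libraries of the same Id2 sorts held 3.56, 4.12 and 1.63 CPM of Krt5. For this gene replicate 2 was near the luminal level of its sort, and replicates 4 and 6 were above theirs. The 12 basal markers together summed to 186, 330.1 and 212 CPM in those luminal libraries, below the 882, 14572 and 840.0 CPM of the libraries labelled Id2 basal, and the smooth muscle actin gene Acta2 measured 49.2, 116 and 54.5 CPM in the luminal and 537, 8399 and 515 CPM in the basal ones. Of the 12 basal markers, 10 were lower in every library labelled Id2 basal than in any of the 19 others, and the exceptions were Acta2 and Myh11, the smooth muscle myosin heavy chain gene, which Id2 replicate 4 held at 8399 and 5346 CPM. Because these values go against the label, the samples are called the libraries labelled Id2 basal, or Id2 replicates, throughout.

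Endothelial, fibroblast and vessel wall markers summed higher in each of these libraries than in any Iw4 library, and each list was highest in a different replicate. The summed level of 15 endothelial markers, of cells that line blood vessels, was 22157, 945 and 753 CPM in Id2 replicates 2, 4 and 6 and 157, 257 and 154 CPM in the Iw4 libraries. Fibroblast markers, 12 genes of the connective tissue, summed to 3204, 10867 and 74476 CPM at Id2 and 387, 814 and 2113 CPM at Iw4. Markers of pericytes and vascular smooth muscle, the contractile cells of vessel walls, summed to 3409, 12064 and 2724 CPM at Id2 and 204, 445 and 437 CPM at Iw4. Over the 19 basal libraries not labelled Id2 these sums reached 2121, 12245 and 17603 CPM, so only the endothelial sum of replicate 2 and the fibroblast sum of replicate 6 lay above that range. The vessel wall sum of replicate 4 lay between those of the 2 basal libraries of lactation day 10, 10158 and 17603 CPM. The sort selects against CD31, an endothelial surface protein, and, with an antibody listed for the human protein, against CD140a, a fibroblast one. Their genes were not absent: Pecam1, which encodes CD31, measured 3205, 114 and 81.4 CPM in the Id2-labelled libraries and 27.5, 36.2 and 19.1 CPM at Iw4, and Pdgfra, which encodes CD140a, measured 51.5, 301 and 2002 CPM in the Id2-labelled libraries and 11.2, 38.3 and 29.1 CPM at Iw4. Vwf reached 7390 CPM in replicate 2, Rgs5 6932 CPM in replicate 4 and Col1a1 27788 CPM in replicate 6. No member of these 3 lists was at 0 in any library labelled Id2 basal.

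The sum of the 12 basal markers, given above for Id2, was 12313, 16124 and 19984 CPM at Iw4, and the high value of Id2 replicate 4 came mainly from contractile genes. Split by role after the values were seen, 8 markers of the epithelium summed to 26.4, 413 and 26.7 CPM at Id2 and 3582, 4754 and 4725 CPM at Iw4, while the 4 contractile markers (Acta2, Myh11, Oxtr and Cnn1) summed to 855, 14159 and 813 CPM at Id2 and 8732, 11370 and 15259 CPM at Iw4. The groups did not overlap for the epithelial markers and did for the contractile ones. Milk genes summed to 60820, 55980 and 13692 CPM at Id2 and 12957, 4090.0 and 2502 CPM at Iw4, and the 14 luminal markers to 1072, 631 and 310.0 CPM and to 2031, 1452 and 609 CPM. Macrophage markers, summing to 63.4, 76.7 and 85.0 CPM at Id2 and 23.4, 16.9 and 17.5 CPM at Iw4, were low in all 6, and Fcgr1, an immunoglobulin receptor that defines these cells, was at or under the floor in all 6. In sorted bulk samples fewer cells of a type and less RNA per cell cannot be told apart, and what part the other cell types had in the differences below was not tested.

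**Figure D1:**
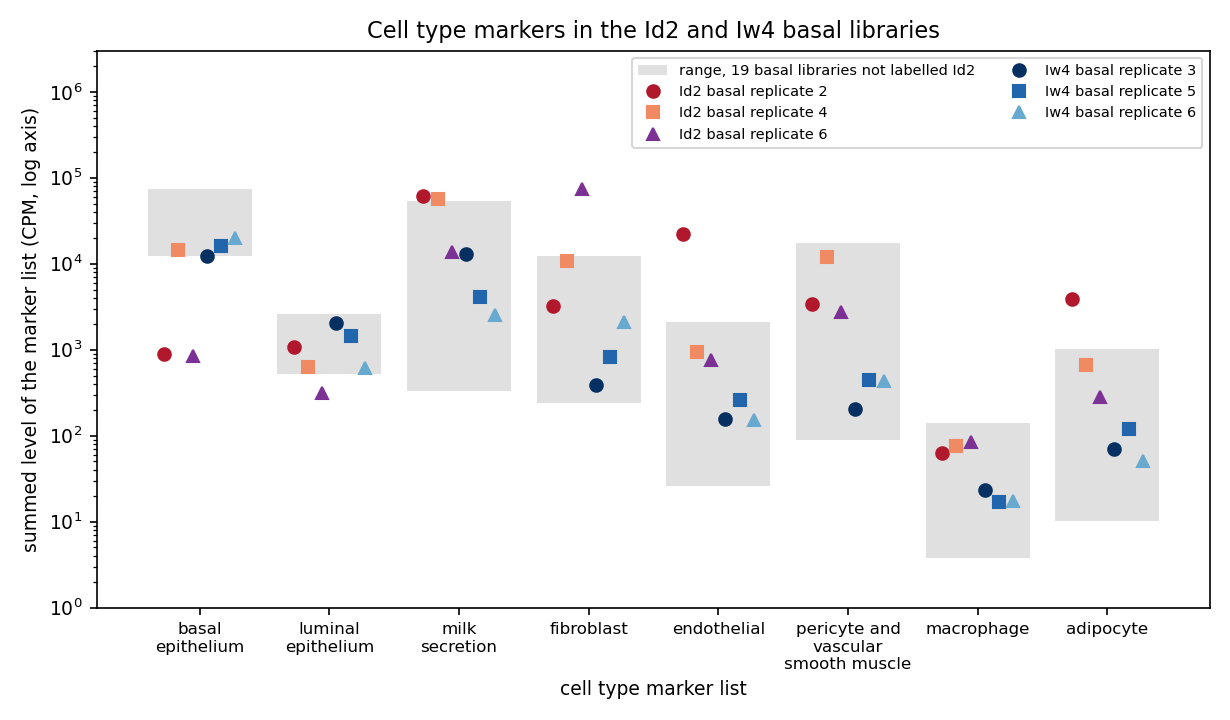
Summed level of 8 cell type marker lists (CPM, log axis) in the 3 libraries labelled Id2 basal (red, orange and purple) and the 3 Iw4 basal libraries (blue), with the range of the 19 basal libraries not labelled Id2 as a grey band. Id2 replicate 2 reached 22157 CPM of endothelial markers and replicate 6 reached 74476 CPM of fibroblast markers, both above the band. Milk genes of replicates 2 and 4 and adipocyte markers of replicate 2 (3892 CPM) were above it as well. Replicates 2 and 6 fell below the band for basal markers, and replicate 6 for luminal markers.

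Over all 17078 genes, 1391 (8.14%) were called higher and 1583 (9.27%) lower at Iw4 than in the libraries labelled Id2 basal (limma, false discovery rate under 0.01 and at least 2-fold), and the median change of all genes was 0.03. The fit shares its estimate of spread over all 46 libraries. Fitted on the 6 libraries alone, 185 (1.08%) were called higher, all of them among the 1391, and 105 (0.615%) lower, 104 of them among the 1583. Without regard to the test, the 3 values of a group lay wholly above those of the other for 3400 genes (19.9%) at Iw4 and for 3112 (18.2%) at Id2. With Id2 replicates 2, 4 and 6 in turn as the only library of their group, 1192, 628 and 926 genes were called higher and 1579, 976 and 1122 lower, and 349 and 230 genes were called against each of the 3 libraries alone.

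Counted against these shares, 11 of the 12 basal markers were called higher at Iw4, with a median change of 5.49, and 4 of the 14 luminal markers were called higher (Krt8, Epcam, Cited1 and Areg). The endothelial list had 13 of 15 members called lower, the fibroblast list 8 of 12, the vessel wall list 7 of 10, the milk list 4 of 10 and the macrophage list 3 of 12. Without Id2 replicate 2 the endothelial count was 4, and without replicates 4 and 6 the fibroblast count was 5 and 3. The milk count was 2 without replicate 2 or 4 and 7 without replicate 6, the macrophage count 1 without replicate 4 or 6, and no luminal marker was called without replicate 6. Of 6 adipocyte markers measured, Fabp4 and Pparg were called lower, with Fabp4 at 3719 CPM in Id2 replicate 2, of 3 lymphocyte markers Cd3e was, of 2 erythroid markers Hba-a1 was, and none of 6 Schwann cell markers was called. In the fit of the 6 libraries 1 basal marker was called higher and 2 milk and 2 vessel wall markers lower, and no member of the other marker lists was called.

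A wide span over the libraries labelled Id2 basal was counted more often among the genes called lower at Iw4 than among those called higher. Among the 1391 called higher, 15.1% spanned at least 4-fold over the Id2 libraries, and among the 1583 called lower 45.4% did. The Iw4 libraries spanned as much for 2.16% and 4.36% of these genes. Of the genes called lower, replicate 2 was the highest Id2 library for 44.7%, replicate 6 for 33.1% and replicate 4 for 22.2%.

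**Figure D2:**
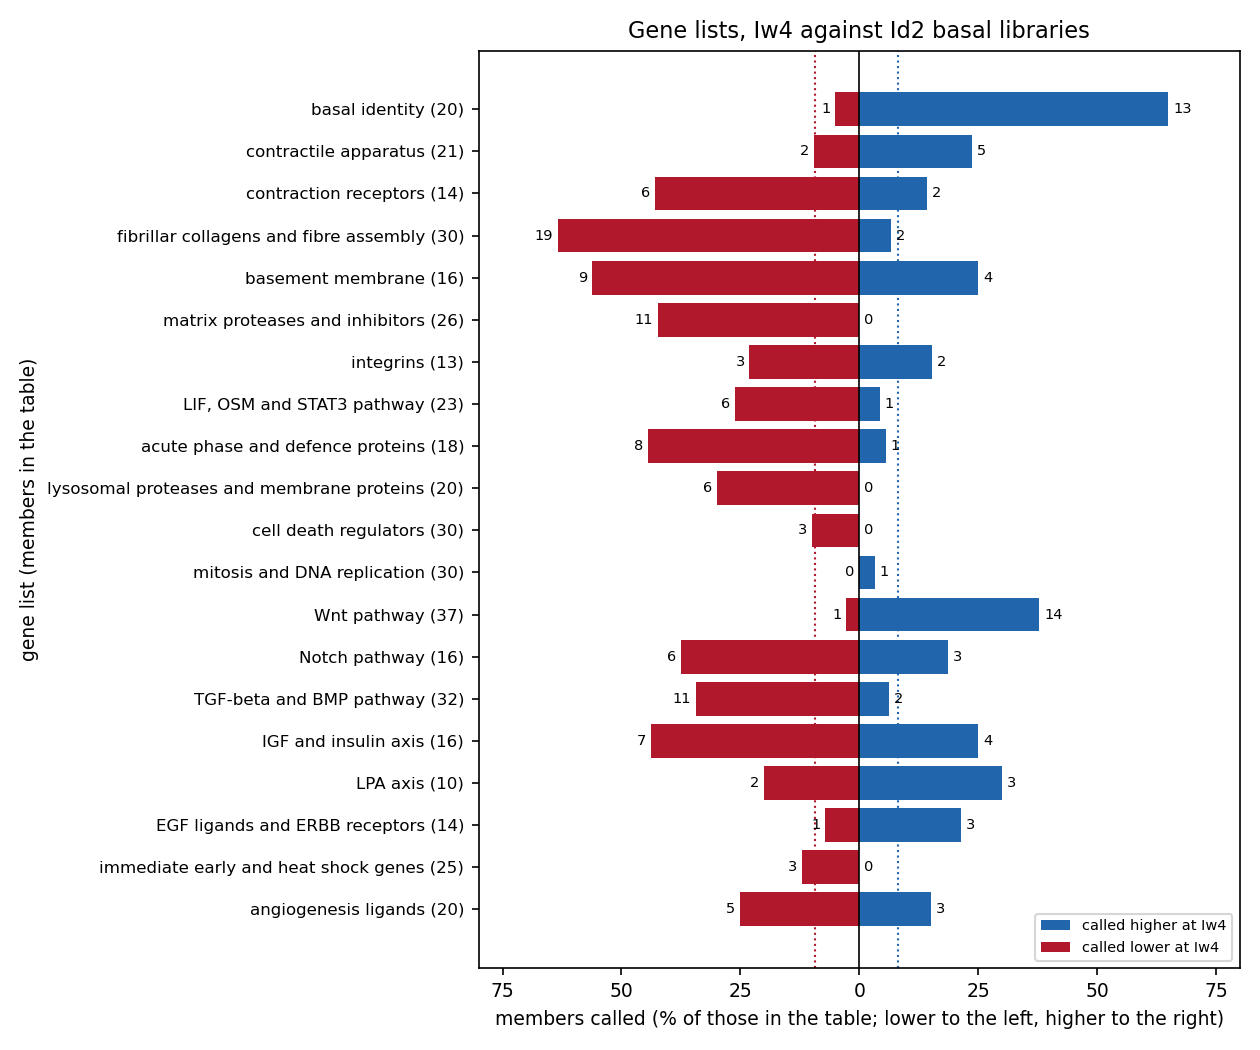
Share of each gene list called higher (blue, to the right) or lower (red, to the left) at Iw4 than in the libraries labelled Id2 basal, in percent of the members in the table, with the number called at the end of each bar and the number in the table in brackets. Dotted lines mark the shares over all genes, 9.27% lower and 8.14% higher. Among the pathway lists, basal identity and Wnt reached furthest to the right, and fibrillar collagens and basement membrane furthest to the left.

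Of the pathway lists, basal identity had the largest share of members called higher at Iw4. Of 20 members, 13 rose from the libraries labelled Id2 basal to Iw4, 1 fell and 6 were not called, with a median change of 3.84 against 0.03 over all genes. Krt15, a keratin of the basal layer, measured 0, 1.16 and 0.162 CPM in the Id2-labelled libraries and 169, 127 and 259 CPM at Iw4 (7.03 ± 0.64 (SE), adjusted p = 1.70e-10). Krt14, the partner of keratin 5, measured 2.65, 49.0 and 3.07 CPM in the Id2-labelled libraries and 518, 808 and 982 CPM at Iw4 (6.36 ± 0.64 (SE), adjusted p = 1.85e-09). Every Iw4 library was above every library labelled Id2 basal for both keratins, and among the latter replicate 4 was the highest. Krt5 rose from the values given above to 1447, 1828 and 1666 CPM (6.41 ± 0.79 (SE), adjusted p = 1.02e-07) and Krt17 from 0.312, 21.0 and 1.62 to 212, 324 and 359 CPM (6.11 ± 0.66 (SE), adjusted p = 8.16e-09). Trp63 reached 469.9, 538 and 605 CPM at Iw4 (5.61 ± 0.68 (SE), adjusted p = 6.80e-08).

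The adhesion genes of the list included called and uncalled members. Col17a1, a collagen of the hemidesmosome that anchors basal cells to the basement membrane, measured 1.56, 81.0 and 3.23 CPM in the Id2-labelled libraries and 351, 601 and 446 CPM at Iw4 (5.57 ± 0.76 (SE), adjusted p = 5.85e-07). Cdh3, which encodes P-cadherin, measured 0.937, 44.3 and 4.52 CPM in the Id2-labelled libraries and 283, 372 and 359 CPM at Iw4 (5.42 ± 0.69 (SE), adjusted p = 1.55e-07). Lamb3, a chain of laminin 332, measured 5.93, 24.3 and 1.62 CPM in the Id2-labelled libraries and 209, 234 and 203 CPM at Iw4 (4.81 ± 0.43 (SE), adjusted p = 1.23e-10). In all of these Id2 replicate 4 was the highest of its group and still under the lowest Iw4 library. Itga6, the integrin chain CD49f, was less far apart, with 461, 239.7 and 39.4 CPM in the Id2-labelled libraries and 943, 1142 and 1350.2 CPM at Iw4 (2.78 ± 0.43 (SE), adjusted p = 5.10e-06), and its partner Itgb4 did not pass the test, since replicate 2 held 588 CPM and replicates 4 and 6 held 62.1 and 20.04 CPM, on both sides of the Iw4 values of 128, 155 and 139 CPM. Dst, which encodes dystonin, a linker of keratins to the hemidesmosome, was not called either (1671, 1274 and 529.7 CPM in the Id2-labelled libraries and 1469.9, 2991 and 1549 CPM at Iw4, 0.86 ± 0.34 (SE), adjusted p = 0.0532).

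A few members stood apart from the rest of the list. Tbx3, a T-box transcription factor, fell (88.5, 237 and 162 CPM in the Id2-labelled libraries and 50.3, 65.2 and 48.1 CPM at Iw4, -1.46 ± 0.40 (SE), adjusted p = 0.00518). Mef2c, a transcription factor of muscle and vessels, was not called (302, 526 and 75.5 CPM in the Id2-labelled libraries and 54.0, 73.4 and 69.1 CPM at Iw4, -1.80 ± 0.59 (SE), adjusted p = 0.0193). Lifr, the LIF receptor, and Jag1, a Notch ligand, overlapped between the groups with 847, 249 and 340.2 against 752, 1279 and 528 CPM and 214, 504 and 168 against 161, 179 and 179 CPM. In the fit of the 6 libraries, 2 of the 13 rises remained (Krt15 and Trp63), and with each Id2 replicate as the only library of its group 14, 11 and 14 members were called higher for replicates 2, 4 and 6.

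**Figure D3:**
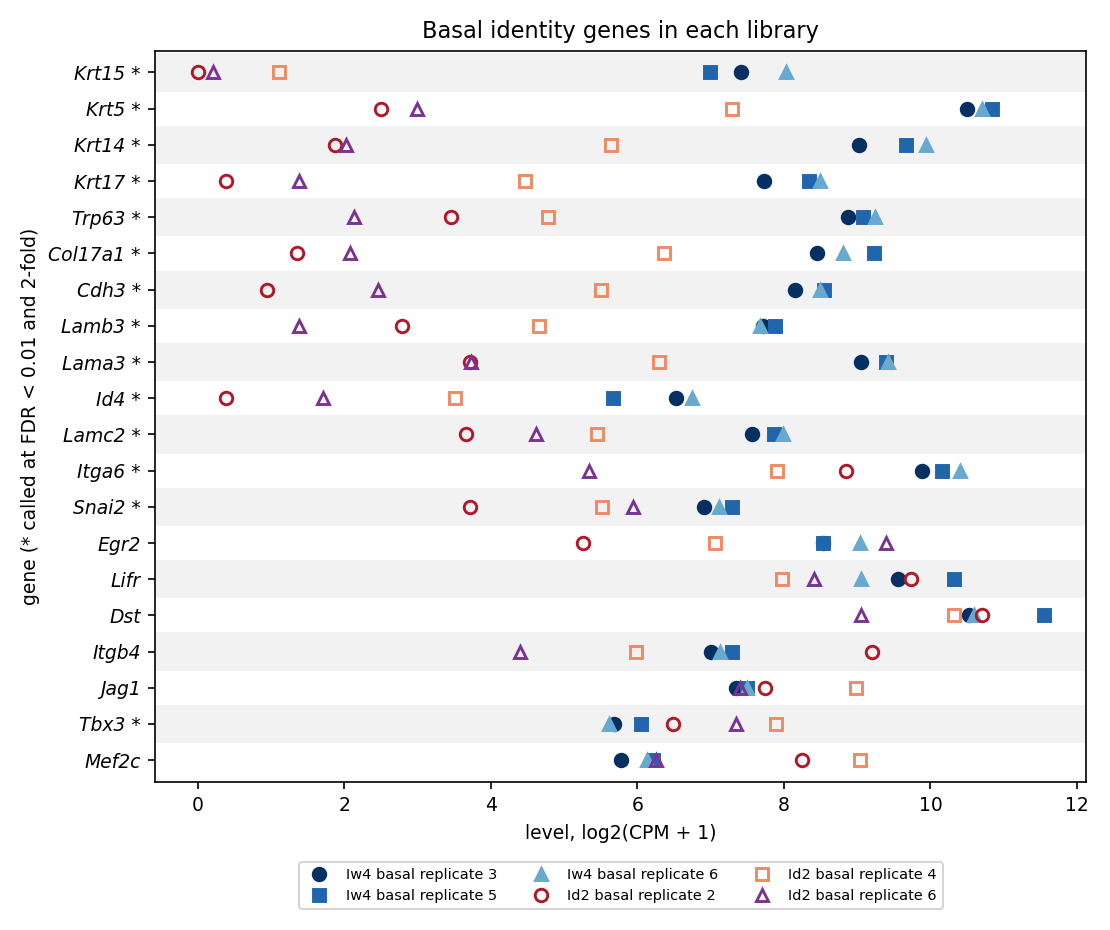
Level of the 20 basal identity genes, log2(CPM + 1), in each library labelled Id2 basal (open symbols) and each Iw4 basal library (filled symbols), ordered by fold change, with called genes starred. The filled symbols lie to the right of all open symbols for the 13 genes that rose, and Id2 replicate 4 is the nearest to them for all of these but Itga6 and Snai2.

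The contractile apparatus followed Id2 replicate 4. Of 21 members 5 rose (Cnn1, Actg2, Acta2, Smtn and Lmod1), 2 fell (Des and Myocd) and 14 were not called, with a median change of 0.85. Acta2, smooth muscle actin, measured 537, 8399 and 515 CPM in the Id2-labelled libraries and 5418, 6533 and 9911 CPM at Iw4 (2.41 ± 0.62 (SE), adjusted p = 0.0028). Myh11, smooth muscle myosin heavy chain, measured 307, 5346 and 284 CPM in the Id2-labelled libraries and 1881, 2639 and 3161 CPM at Iw4 (1.69 ± 0.65 (SE), adjusted p = 0.0455). For both genes replicates 2 and 6 were below every Iw4 library, whereas replicate 4 was inside the Iw4 range for Acta2 and above it for Myh11. Cnn1, the actin-binding protein calponin, was lower in all 3, with 8.74, 316 and 8.08 CPM in the Id2-labelled libraries and 862, 1151 and 1399 CPM at Iw4 (5.20 ± 0.70 (SE), adjusted p = 4.26e-07), as was Smtn, which encodes smoothelin (40.4, 78.2 and 53.8 CPM in the Id2-labelled libraries and 206, 322 and 219 CPM at Iw4, 2.12 ± 0.34 (SE), adjusted p = 7.70e-06). Replicate 4 was the nearest to the Iw4 libraries for both.

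Replicate 4 also exceeded the Iw4 libraries for several other members. Mylk, the kinase that starts smooth muscle contraction, measured 484, 3509 and 221 CPM in the Id2-labelled libraries and 1348, 1761 and 2744 CPM at Iw4, and Myl9, the myosin light chain it acts on, measured 145, 2149 and 113 CPM in the Id2-labelled libraries and 741, 994 and 1309 CPM at Iw4. Synpo2, an actin-binding protein of muscle, measured 108, 933 and 86.8 CPM in the Id2-labelled libraries and 168, 286 and 278 CPM at Iw4. None of these was called. Without replicate 4, 13 members were called higher and 1 lower, and without replicate 2 or 6 the counts were 3 and 2. With replicate 4 as the only Id2 library no member was called higher and 4 were called lower, with a median of -0.82, whereas with replicates 2 and 6 alone 10 and 11 members were called higher with medians of 1.57 and 1.55. Des, which encodes the muscle filament desmin, fell (61.7, 500.3 and 28.6 CPM in the Id2-labelled libraries and 6.42, 15.5 and 9.48 CPM at Iw4, -3.17 ± 0.63 (SE), adjusted p = 1.91e-04), and so did Myocd, the coactivator myocardin that drives smooth muscle genes together with SRF (16.4, 301 and 11.2 CPM in the Id2-labelled libraries and 5.70, 10.2 and 7.19 CPM at Iw4, -2.23 ± 0.63 (SE), adjusted p = 0.00661). Des is also a marker on the vessel wall list, whose summed level was 12064 CPM in replicate 4, and the share of vessel wall cells in these values was not tested. edgeR on the recovered reads called 2 of the 5 rises (Cnn1 and Smtn), and the fit of the 6 libraries called none of the 7 changes.

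**Figure D4:**
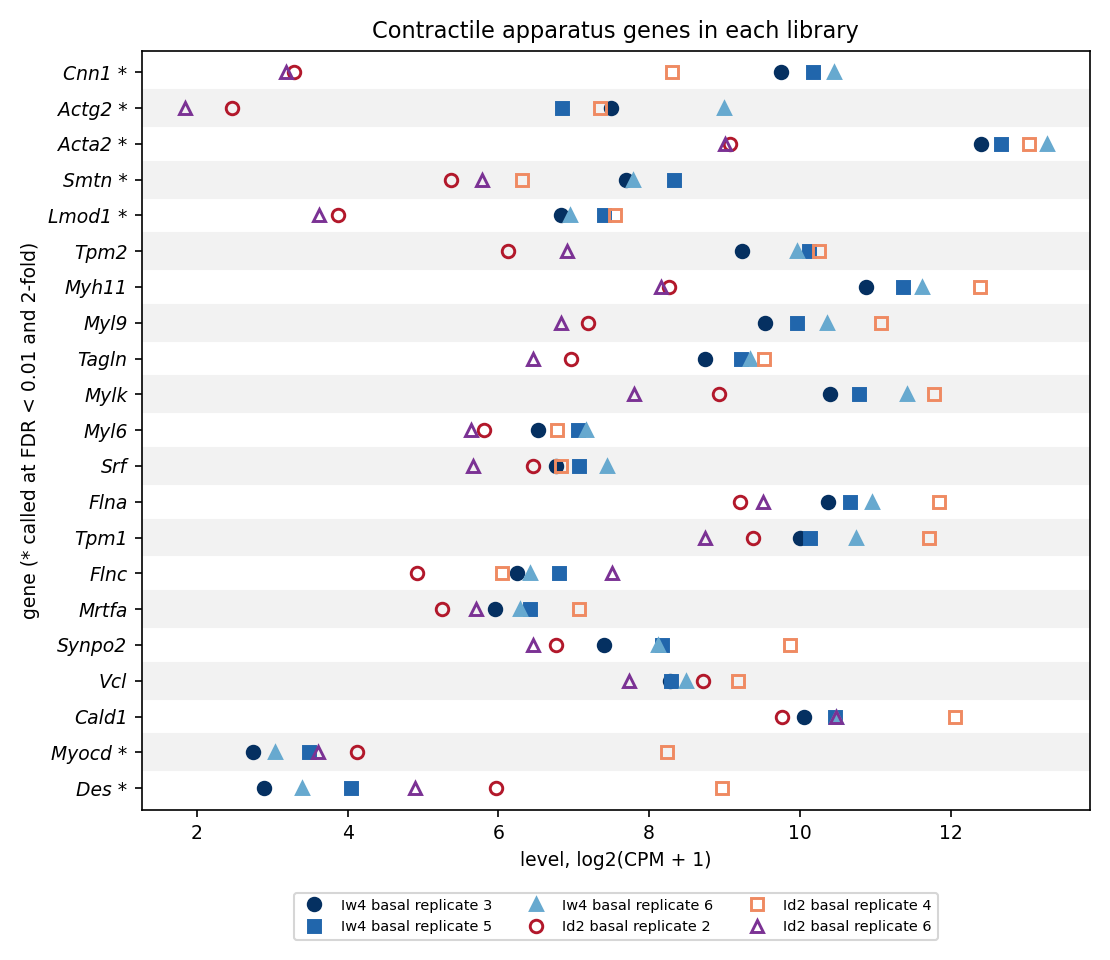
Level of the 21 contractile apparatus genes, log2(CPM + 1), in each library labelled Id2 basal (open symbols) and each Iw4 basal library (filled symbols), ordered by fold change, with called genes starred. Id2 replicate 4 lies among or to the right of the Iw4 libraries for all genes but Cnn1, Smtn and Flnc, with 8399 CPM of Acta2 and 933 CPM of Synpo2, and replicates 2 and 6 lie to its left for all but Flnc.

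SRF binds the CArG box, and its letters were searched on both strands in the 250 bases before the start of each gene (RefSeq, build GRCm38.p6, which differs from the build of the files). Of the 17 contractile genes with such a sequence 4 (23.5%) held a match, against 1.62% of all 27025 genes, and the sequences around the matches are shown because these genes share a regulator in muscle, with the matches in capitals and each run written 5′ to 3′ on the strand of the gene:
Myl6, minus strand of chr10:128493020-128493089: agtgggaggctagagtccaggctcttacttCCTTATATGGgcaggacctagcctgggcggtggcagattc
Myl9, plus strand of chr2:156775273-156775342: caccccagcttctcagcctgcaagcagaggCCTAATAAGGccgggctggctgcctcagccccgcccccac
Srf, minus strand of chr17:46556185-46556274: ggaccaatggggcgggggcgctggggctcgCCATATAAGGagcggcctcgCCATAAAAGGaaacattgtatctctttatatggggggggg
Vcl, plus strand of chr14:20929148-20929210: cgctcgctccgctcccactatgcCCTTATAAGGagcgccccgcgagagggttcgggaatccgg
None of these 4 genes was called between the groups. Myl6 measured 54.8, 108 and 48.6 CPM in the Id2-labelled libraries and 91.1, 132 and 143 CPM at Iw4, Srf measured 86.7, 113 and 49.8 CPM in the Id2-labelled libraries and 108, 133 and 173 CPM at Iw4 and Vcl, the adhesion protein vinculin, 39.7% of whose exon bases overlap another gene, measured 419.6, 576 and 211 CPM in the Id2-labelled libraries and 309.6, 313 and 359.9 CPM at Iw4. A match is a description of the sequence and not evidence of binding.

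Among receptors that control contraction, Oxtr, the oxytocin receptor, stood apart. It measured 1.56, 98.2 and 6.30 CPM in the Id2-labelled libraries and 572, 1046 and 789 CPM at Iw4 (5.99 ± 0.78 (SE), adjusted p = 2.46e-07). Every Iw4 library was above every Id2 library, and replicate 2 was close to 0. Of 14 receptors measured, 2 rose (Oxtr and the purine receptor gene P2ry1) and 6 fell, with a median of -1.48. Avpr1a, the vasopressin receptor of smooth muscle, fell (332, 1843 and 213 CPM in the Id2-labelled libraries and 16.04, 19.1 and 16.2 CPM at Iw4, -4.81 ± 0.67 (SE), adjusted p = 8.89e-07), as did Ednrb, an endothelin receptor of vessels (346, 329 and 80.6 CPM in the Id2-labelled libraries and 7.49, 8.87 and 17.8 CPM at Iw4, -4.18 ± 0.62 (SE), adjusted p = 2.49e-06). P2rx1, an ATP-gated channel of smooth muscle, was high in replicate 4 only, at 144 CPM against 7.49 and 4.52 CPM in replicates 2 and 6 and 1.07, 3.50 and 2.13 CPM at Iw4 (-2.63 ± 0.61 (SE), adjusted p = 0.00101). The α-adrenoceptor genes were low in both groups, and of the 6 only Adra1b was called, with 2.19, 9.88 and 1.62 CPM in the Id2-labelled libraries and 0, 0.941 and 0 CPM at Iw4 (-1.85 ± 0.35 (SE), adjusted p = 1.18e-04). With replicates 2, 4 and 6 as the only Id2 library the median change of the receptors was -1.21, -2.10 and -0.96. In the fit of the 6 libraries none of the receptors was called in either direction, Oxtr included.

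Among all genes, those with the widest gap between the lowest Iw4 library and the highest Id2 library, or the largest fold change, were named first. Wif1, a secreted inhibitor of Wnt ligands, measured 0, 0.969 and 0 CPM in the Id2-labelled libraries and 269, 342 and 389.5 CPM at Iw4 (8.04 ± 0.46 (SE), adjusted p = 2.81e-15). 1500015O10Rik, which encodes the secreted peptide augurin, measured 0, 0.291 and 0.323 CPM in the Id2-labelled libraries and 198, 336 and 299 CPM at Iw4 (7.83 ± 0.44 (SE), adjusted p = 1.62e-15), at or under the floor in all Id2 libraries. Lgr6, a receptor for R-spondins, measured 0.156, 5.23 and 0.485 CPM in the Id2-labelled libraries and 266, 155 and 399 CPM at Iw4 (6.86 ± 0.48 (SE), adjusted p = 6.85e-13). In each of these the highest Id2 library was far below the lowest Iw4 library. Col9a2, a chain of collagen IX, was at or under the floor in all Id2 libraries and at 33.5, 58.4 and 63.4 CPM at Iw4, at least 107-fold higher if Id2 is set at the floor of 3 reads per library, and Col9a3, which encodes its partner chain, measured 0.312, 2.13 and 0.323 CPM in the Id2-labelled libraries and 94.7, 102 and 144 CPM at Iw4 (6.00 ± 0.44 (SE), adjusted p = 1.64e-12). Mia, a small secreted protein of cartilage, was likewise under the floor at Id2 and at 21.9, 28.0 and 36.1 CPM at Iw4, at least 59.1-fold higher, though 71.4% of its exon bases overlap another gene.

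The remaining genes of this kind were Fat2, an atypical cadherin (0.625, 5.81 and 1.29 CPM in the Id2-labelled libraries and 172, 175 and 209.7 CPM at Iw4), the apolipoprotein gene Apoc1 (9.37, 3.39 and 1.78 CPM in the Id2-labelled libraries and 185, 189 and 294 CPM at Iw4), the homeobox gene Irx4 (0, 2.03 and 0 CPM in the Id2-labelled libraries and 59.0, 51.8 and 57.2 CPM at Iw4), the matrix gene Chadl (0, 0.388 and 0.97 CPM in the Id2-labelled libraries and 48.1, 32.7 and 88.9 CPM at Iw4) and Tenm2, a teneurin (0.312, 21.8 and 1.29 CPM in the Id2-labelled libraries and 327, 406 and 359.6 CPM at Iw4). Their log2 fold changes were 5.98 ± 0.50, 5.44 ± 0.40, 5.30 ± 0.41, 5.24 ± 0.66 and 6.47 ± 0.70 (SE), with no overlap between groups. All but Tenm2 (adjusted p = 0.0137, limma) were also called in the fit of the 6 libraries. Genes named by gap or fold change, in either direction, were picked on the values of these same 6 libraries. Their lack of overlap and these calls are therefore no separate support.

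Chosen in the same way, the genes lower at Iw4 were the following. Csn1s2b, a casein, measured 2875, 2934 and 843 CPM in the Id2-labelled libraries and 1.07, 0 and 0.163 CPM at Iw4 (-10.49 ± 0.88 (SE), adjusted p = 2.66e-11). Wap, whey acidic protein, measured 3023, 2748 and 602 CPM in the Id2-labelled libraries and 22.3, 2.15 and 0.981 CPM at Iw4 (-8.35 ± 1.04 (SE), adjusted p = 1.21e-07). Wfdc17, a small protein of the same domain family, measured 390.4, 458 and 97.9 CPM in the Id2-labelled libraries and 0.891, 0.403 and 0.817 CPM at Iw4 (-7.27 ± 0.78 (SE), adjusted p = 6.04e-09). The groups were far apart for these 3 genes, and replicate 6 was the lowest Id2 library for each. The luminal libraries of the Id2 sorts held 18657, 22295 and 10852 CPM of Csn1s2b and 43978, 23951 and 14547 CPM of Wap, far more than the basal ones. What part of the milk RNA in the basal libraries came from luminal cells or milk was not tested.

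Il6, the cytokine interleukin 6, measured 2489, 1511 and 760.0 CPM in the Id2-labelled libraries and 25.0, 28.2 and 26.2 CPM at Iw4 (-5.69 ± 0.64 (SE), adjusted p = 1.44e-08). Adamts4, a protease that cleaves aggrecan and versican, measured 4387, 3375 and 1666 CPM in the Id2-labelled libraries and 50.4, 52.4 and 67.02 CPM at Iw4 (-5.67 ± 0.61 (SE), adjusted p = 5.54e-09). No library labelled Id2 basal came near any Iw4 library for these genes, and replicate 2 was the highest Id2 library for both. Ebf1, a transcription factor of stromal and B cells, measured 654, 538 and 482 CPM in the Id2-labelled libraries and 9.63, 19.1 and 22.7 CPM at Iw4 (-5.01 ± 0.64 (SE), adjusted p = 1.77e-07), and Kcnj8, a potassium channel subunit that is also on the vessel wall list, measured 62.9, 46.1 and 49.3 CPM in the Id2-labelled libraries and 0.535, 1.21 and 2.13 CPM at Iw4 (-4.60 ± 0.52 (SE), adjusted p = 2.19e-08). The others were Csgalnact1, an enzyme of chondroitin sulfate synthesis (-5.24 ± 0.56), the interferon-inducible genes Ifi203 (-5.32 ± 0.72) and Ifi205 (-5.56 ± 0.75), Ddah1, an enzyme that degrades inhibitors of nitric oxide synthase (-4.88 ± 0.73), the galactosyltransferase gene B4galt5 (-4.61 ± 0.41) and the matrix genes Cilp (-6.21 ± 1.06) and Svep1 (-5.71 ± 1.00, all SE). Cilp, Svep1 and Ifi205 were highest in replicate 6 by a wide margin, with 3007, 2757 and 482 CPM against at most 298 CPM in the other Id2 libraries.

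Fibrillar collagens and the proteins that assemble them were mostly called lower at Iw4, and those named here were highest in Id2 replicate 6. Of 30 members 19 fell and 2 rose, with a median of -2.95, and in the fit of the 6 libraries none was called. Col1a1, a chain of collagen I, measured 1148, 4359 and 27788 CPM in the Id2-labelled libraries and 76.3, 146 and 535 CPM at Iw4 (-4.83 ± 1.17 (SE), adjusted p = 0.00162). Lox, the enzyme that cross-links collagen and elastin, measured 309.6, 1812 and 5708 CPM in the Id2-labelled libraries and 6.06, 119.7 and 42.0 CPM at Iw4 (-5.47 ± 0.99 (SE), adjusted p = 5.08e-05). Fn1, fibronectin, measured 383, 1861 and 5326 CPM in the Id2-labelled libraries and 64.9, 113 and 262 CPM at Iw4 (-3.64 ± 0.92 (SE), adjusted p = 0.00246). All 3 were ordered the same way at Id2, with replicate 6 above 4 and 4 above 2, and replicate 2 was still above the highest Iw4 library. Col5a3, a chain of collagen V, fell by 5.07 on the log2 scale (32.5, 216 and 382 CPM in the Id2-labelled libraries and 1.96, 2.42 and 6.21 CPM at Iw4), and Loxl2, a relative of Lox, by 4.68 (100.4, 679 and 1555 CPM in the Id2-labelled libraries and 6.06, 20.3 and 41.7 CPM at Iw4). Without replicate 6, 8 members were called lower and 3 higher, and without replicate 4 11 were called lower and 2 higher. With replicates 2, 4 and 6 as the only Id2 library 3, 8 and 23 members were called lower and 3, 1 and 1 higher. The summed fibroblast markers, which include Col1a1, Col1a2, Col3a1, Dcn and Lum, had the same order of the Id2 libraries, and whether the collagen values came from fibroblasts was not tested.

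Some matrix genes went the other way. Col16a1, a collagen that links fibrils to cells, rose (6.56, 11.5 and 54.1 CPM in the Id2-labelled libraries and 121, 187 and 222 CPM at Iw4, 3.31 ± 0.41 (SE), adjusted p = 8.87e-08), as did Fmod, the collagen-binding proteoglycan fibromodulin (13.6, 91.7 and 195 CPM in the Id2-labelled libraries and 335, 320.4 and 709 CPM at Iw4, 2.73 ± 0.65 (SE), adjusted p = 0.0014). For neither gene did the groups overlap. Col14a1 was not called, with 26.7, 64.2 and 576 CPM in the Id2-labelled libraries and 475, 486 and 516 CPM at Iw4, since replicate 6 was above all Iw4 libraries.

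The basement membrane list split by chain. Of 16 members 4 rose (Lama1, Col4a5, Col4a6 and Agrn) and 9 fell, with a median of -1.40. The fit of the 6 libraries called 1 member higher and 2 lower. Lama1, the laminin chain α1, measured 6.09, 35.8 and 29.4 CPM in the Id2-labelled libraries and 493, 363 and 755 CPM at Iw4 (4.69 ± 0.41 (SE), adjusted p = 7.96e-11). Col4a6, a chain of collagen IV found in epithelial basement membranes, measured 1.56, 13.1 and 2.42 CPM in the Id2-labelled libraries and 117, 199 and 154 CPM at Iw4 (4.95 ± 0.39 (SE), adjusted p = 6.42e-12), and its neighbour Col4a5 measured 14.2, 104 and 24.4 CPM in the Id2-labelled libraries and 280.2, 298 and 310.1 CPM at Iw4 (3.11 ± 0.40 (SE), adjusted p = 1.75e-07). For each, every Iw4 library was above every library labelled Id2 basal. In contrast Nid1, the linker nidogen 1, fell (2043, 1686 and 4992 CPM in the Id2-labelled libraries and 64.4, 118 and 178 CPM at Iw4, -4.53 ± 0.68 (SE), adjusted p = 2.93e-06), and so did Nid2 (80.3, 42.0 and 77.6 CPM in the Id2-labelled libraries and 2.14, 4.30 and 1.47 CPM at Iw4, -4.23 ± 0.63 (SE), adjusted p = 2.50e-06), Lama2, a laminin chain of muscle and stroma (104, 242 and 1655 CPM in the Id2-labelled libraries and 4.99, 12.9 and 38.7 CPM at Iw4, -4.55 ± 1.00 (SE), adjusted p = 6.36e-04), and Hspg2, which encodes perlecan (2709.7, 2174 and 4055 CPM in the Id2-labelled libraries and 503, 542 and 652 CPM at Iw4, -2.35 ± 0.33 (SE), adjusted p = 1.00e-06). Lama2 was highest in replicate 6, while the nidogens were high in all Id2 libraries.

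Among 13 integrin chains other than those of basal identity, 2 rose and 3 fell, with a median of -0.17. Itgb8, which encodes a receptor that activates TGF-β, measured 5.78, 13.2 and 6.95 CPM in the Id2-labelled libraries and 99.5, 119 and 100.04 CPM at Iw4 (3.55 ± 0.28 (SE), adjusted p = 3.83e-12), and Itga2, a collagen receptor chain, measured 17.2, 3.97 and 9.86 CPM in the Id2-labelled libraries and 42.8, 31.3 and 48.5 CPM at Iw4 (2.05 ± 0.43 (SE), adjusted p = 3.97e-04). Itga5, the fibronectin receptor chain, measured 607, 419 and 689.6 CPM in the Id2-labelled libraries and 62.0, 62.9 and 87.5 CPM at Iw4 (-2.98 ± 0.54 (SE), adjusted p = 5.94e-05), and Itga7, a laminin receptor chain of muscle, measured 15.5, 103 and 12.0 CPM in the Id2-labelled libraries and 2.50, 3.76 and 6.54 CPM at Iw4 (-2.49 ± 0.54 (SE), adjusted p = 5.09e-04). Itgb1, which encodes the shared chain CD29 by which the cells were gated, fell by 1.01 on the log2 scale (932, 1037 and 676 CPM in the Id2-labelled libraries and 348, 505 and 454 CPM at Iw4). The groups did not overlap for these 5 genes, and replicate 4 was far above the other Id2 libraries for Itga7 alone. Without replicate 4, 3 members were called higher and 1 lower.

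Proteases of the matrix and their inhibitors were called in 1 direction, with 11 of 26 lower at Iw4, none higher and a median of -1.69. The fit of the 6 libraries called 2 of them lower and none higher. Besides Adamts4, Timp1, an inhibitor of metalloproteinases, measured 86.8, 1220.0 and 979 CPM in the Id2-labelled libraries and 6.24, 30.0 and 8.17 CPM at Iw4 (-5.21 ± 0.69 (SE), adjusted p = 3.12e-07). Adam12 measured 24.2, 188 and 385 CPM in the Id2-labelled libraries and 3.39, 5.65 and 19.9 CPM at Iw4 (-3.85 ± 0.65 (SE), adjusted p = 1.95e-05) and Adamts5, another aggrecanase, 142, 221 and 743 CPM in the Id2-labelled libraries and 21.7, 59.3 and 17.7 CPM at Iw4 (-3.28 ± 0.67 (SE), adjusted p = 2.59e-04). For these 3 genes replicate 2 was the lowest of the Id2 libraries. Mmp3, stromelysin 1, was highest in replicate 6 (12.8, 21.2 and 194 CPM in the Id2-labelled libraries and 1.25, 1.21 and 6.05 CPM at Iw4, -3.58 ± 0.70 (SE), adjusted p = 1.70e-04). Mmp2 and Mmp14, which encode gelatinase A and its activator, overlapped between groups, with 141, 158 and 1046 against 276, 459 and 328 CPM and 176, 264 and 484 against 197, 199.5 and 214 CPM. Mmp9 was near the floor in all 6 libraries.

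Of the 23 members of the LIF, OSM and STAT3 pathway measured, 6 fell and 1 rose, with a median of -0.50. The ligands Il6 and Lif were lower at Iw4, and Lif measured 102, 329 and 129 CPM in the Id2-labelled libraries and 61.0, 27.8 and 20.9 CPM at Iw4 (-2.27 ± 0.66 (SE), adjusted p = 0.008). Jak1 and Jak2, the kinases that act on STAT3, measured 1075, 467 and 693 CPM in the Id2-labelled libraries and 222, 198 and 233 CPM at Iw4 (-1.69 ± 0.24 (SE), adjusted p = 1.54e-06) and 346, 90.02 and 152 CPM in the Id2-labelled libraries and 57.2, 62.9 and 47.4 CPM at Iw4 (-1.58 ± 0.28 (SE), adjusted p = 3.78e-05), and Il6st, the shared receptor chain gp130, measured 4849, 1575 and 1268 CPM in the Id2-labelled libraries and 738, 1064 and 658 CPM at Iw4 (-1.41 ± 0.32 (SE), adjusted p = 9.17e-04). Replicate 2 was the highest Id2 library for these kinases and for gp130. Stat3 itself measured 722, 512 and 396 CPM in the Id2-labelled libraries and 452, 483 and 414 CPM at Iw4, and Osmr, the receptor of oncostatin M, 840.4, 654 and 797 CPM in the Id2-labelled libraries and 544, 626 and 452 CPM at Iw4, and neither was called. Igfbp5, an IGF-binding protein known from involution, was the member that rose (1379, 3739 and 877 CPM in the Id2-labelled libraries and 4851, 5769 and 6273 CPM at Iw4, 1.76 ± 0.46 (SE), adjusted p = 0.00341), and its call was lost without Id2 replicate 2 or 6, without Iw4 replicate 5 or 6, with Id2 replicate 4 as the only Id2 library, with edgeR, with array weights and in the fit of the 6 libraries, where 1 member of the list was called, lower. Without replicate 2 the list had 4 members called lower and 1 higher, Cish, an inhibitor of cytokine signals, and with replicates 2, 4 and 6 as the only Id2 library 7, 1 and 3 were called lower.

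Socs3, the feedback inhibitor of STAT3, measured 479, 528 and 644 CPM in the Id2-labelled libraries and 658, 632 and 944 CPM at Iw4 and was not called. Its promoter was the only match among the 20 genes of the pathway with a sequence (5.00%, against 8.13% of all genes) to TTCNNNGAA, the motif of STAT proteins searched on both strands in the 250 bases before the start, and it is shown for that reason with the match in capitals:
Socs3, minus strand of chr11:117969482-117969550: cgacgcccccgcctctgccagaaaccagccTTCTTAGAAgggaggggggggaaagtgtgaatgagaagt
No factor was measured here, and other spellings of the motif were not searched.

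Acute phase and defence proteins were lower at Iw4 in 8 of 18 members and higher in 1, with a median of -1.42. Pigr, which carries immunoglobulin A into milk, measured 319.9, 256 and 129 CPM in the Id2-labelled libraries and 23.5, 7.80 and 7.19 CPM at Iw4 (-4.19 ± 0.79 (SE), adjusted p = 8.98e-05). Ltf, lactoferrin, measured 1335, 1947 and 498 CPM in the Id2-labelled libraries and 228, 436 and 31.9 CPM at Iw4 (-2.87 ± 0.75 (SE), adjusted p = 0.00346), and Lrg1, a glycoprotein also made by vessels, measured 2936, 154 and 79.5 CPM in the Id2-labelled libraries and 46.3, 48.7 and 12.1 CPM at Iw4 (-3.40 ± 0.84 (SE), adjusted p = 0.00205). Lrg1 was high in replicate 2 only, whereas Pigr was high in all Id2 libraries. Orm1 and Orm2 also fell, but they are close relatives whose reads are uncertain. Chil1, a secreted chitinase-like protein, rose against the rest of the list, with 39.7, 41.3 and 12.3 CPM in the Id2-labelled libraries and 644, 1355 and 447 CPM at Iw4 (4.69 ± 0.61 (SE), adjusted p = 2.71e-07). Lcn2, lipocalin 2, overlapped between the groups (2740.3, 2165 and 549 CPM in the Id2-labelled libraries and 1802, 1552 and 1405 CPM at Iw4).

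Lysosomal genes were lower at Iw4 in 6 of 20 members and higher in none, with a median of -0.70. Lgmn, a protease of the lysosome, measured 244, 66.0 and 115 CPM in the Id2-labelled libraries and 15.3, 17.5 and 19.0 CPM at Iw4 (-2.77 ± 0.39 (SE), adjusted p = 9.00e-07), and Ctsb, cathepsin B, measured 1945, 669 and 668 CPM in the Id2-labelled libraries and 362, 402 and 322 CPM at Iw4 (-1.40 ± 0.26 (SE), adjusted p = 9.01e-05). Replicate 2 was the highest Id2 library for both, and without it 2 of the list were called. Without replicate 2 the acute phase list had 3 members lower and 2 higher, and without replicate 4 it had 5 lower. Of 30 regulators of cell death 3 fell and none rose, with a median of -0.34: Casp8, an initiator caspase (-1.61 ± 0.31 (SE), adjusted p = 1.41e-04), and the inhibitors of death Birc3 (-1.72 ± 0.39 (SE), adjusted p = 9.63e-04) and Cflar (-1.13 ± 0.25 (SE), adjusted p = 7.74e-04). Without replicate 2, 1 of the list was lower and 1 higher, and without replicate 4 or 6 5 were lower. With replicates 2, 4 and 6 as the only Id2 library the median of the list was -0.91, -0.08 and 0.10, so its direction turned with replicate 6, and in the fit of the 6 libraries no member of the lysosomal or cell death list was called. Of 30 genes of mitosis and DNA replication 1 was called, Gins1 (4.22, 4.36 and 6.30 CPM in the Id2-labelled libraries and 8.91, 12.0 and 18.8 CPM at Iw4, 1.21 ± 0.33 (SE), adjusted p = 0.00476). The call of Gins1 was lost without Id2 replicate 2 or 4, without Iw4 replicate 5 or 6, with any 1 Id2 library alone, with array weights and in the fit of the 6 libraries, and Mki67, the proliferation marker, measured 37.2, 104 and 292 CPM in the Id2-labelled libraries and 70.8, 28.9 and 193 CPM at Iw4 and overlapped between the groups. The shares called in these last lists were at or under those of all genes except for lysosomal genes and cell death regulators on the low side, of which the latter, at 10.0%, was near the 9.27% of all genes.

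The Wnt pathway, which maintains basal progenitors, had more members called higher than lower at Iw4, and most were not called. Of 37 members measured, 14 rose, 1 fell and 22 were not called, with a median of 0.96. Among ligands, Wnt10a measured 0, 1.74 and 0 CPM in the Id2-labelled libraries and 8.73, 8.47 and 23.9 CPM at Iw4 (3.24 ± 0.55 (SE), adjusted p = 2.40e-05), Wnt6 0, 0.485 and 0.162 CPM in the Id2-labelled libraries and 7.49, 2.55 and 14.1 CPM at Iw4 (2.68 ± 0.44 (SE), adjusted p = 1.33e-05) and Wnt5a 9.68, 19.3 and 54.3 CPM in the Id2-labelled libraries and 73.3, 98.0 and 86.5 CPM at Iw4 (1.92 ± 0.55 (SE), adjusted p = 0.00722). Both Wnt10a and Wnt6 were at or under the floor in Id2 replicates 2 and 6 and above it in replicate 4. Among receptors, Lgr5, a marker of stem cells in several epithelia, measured 0.468, 2.33 and 7.76 CPM in the Id2-labelled libraries and 70.9, 141 and 93.3 CPM at Iw4 (4.82 ± 0.58 (SE), adjusted p = 6.73e-08) and Fzd7 measured 16.6, 217 and 47.3 CPM in the Id2-labelled libraries and 602, 939 and 574 CPM at Iw4 (3.59 ± 0.45 (SE), adjusted p = 1.12e-07). Fzd4, a receptor of vessels, was the member that fell (421, 140.3 and 50.4 CPM in the Id2-labelled libraries and 6.95, 13.0 and 11.8 CPM at Iw4, -3.69 ± 0.52 (SE), adjusted p = 1.09e-06). Replicate 2 was the highest Id2 library for Fzd4 and for the sum of endothelial markers. What part endothelial cells had in the Fzd4 values was not tested.

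Other members of the list that rose are given next. Rnf43, a ligase that removes Wnt receptors and is itself a Wnt target, measured 5.47, 5.23 and 1.94 CPM in the Id2-labelled libraries and 55.3, 50.3 and 58.0 CPM at Iw4 (3.50 ± 0.34 (SE), adjusted p = 8.25e-10). Tcf7, a transcription factor of the pathway, measured 0.156, 6.49 and 2.75 CPM in the Id2-labelled libraries and 37.8, 27.7 and 70.1 CPM at Iw4 (3.75 ± 0.54 (SE), adjusted p = 1.35e-06), and Axin2, a target often used as a reporter, measured 1.09, 3.78 and 5.01 CPM in the Id2-labelled libraries and 13.0, 14.7 and 9.97 CPM at Iw4 (1.77 ± 0.51 (SE), adjusted p = 0.00691). For these genes every Iw4 library was above every library labelled Id2 basal. With replicates 2, 4 and 6 as the only Id2 library 17, 8 and 12 members were called higher and 5, 1 and 3 lower, and in the fit of the 6 libraries 3 were called higher (Wif1, Lgr6 and Rnf43).

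Notch receptors carry signals between neighbouring cells. Of 16 Notch pathway members 3 rose and 6 fell, with a median of -0.72. The ligand Dll1 measured 21.4, 5.81 and 1.13 CPM in the Id2-labelled libraries and 68.8, 87.5 and 81.9 CPM at Iw4 (3.54 ± 0.50 (SE), adjusted p = 1.14e-06) and Jag2 41.1, 19.0 and 5.17 CPM in the Id2-labelled libraries and 91.3, 106 and 134 CPM at Iw4 (2.67 ± 0.59 (SE), adjusted p = 6.81e-04), and Lfng, which modifies Notch receptors, also rose (2.08 ± 0.45 (SE), adjusted p = 5.36e-04). Notch3, a receptor of vessel walls that stands on that marker list, measured 244, 2145 and 235 CPM in the Id2-labelled libraries and 57.6, 79.7 and 59.2 CPM at Iw4 (-2.92 ± 0.48 (SE), adjusted p = 1.32e-05), and Notch4 and Dll4, which vessels express, measured 71.8, 21.7 and 12.1 CPM in the Id2-labelled libraries and 2.50, 2.96 and 1.63 CPM at Iw4 (-3.07 ± 0.51 (SE), adjusted p = 1.73e-05) and 35.9, 8.62 and 7.60 CPM in the Id2-labelled libraries and 1.07, 2.15 and 1.47 CPM at Iw4 (-2.52 ± 0.43 (SE), adjusted p = 2.62e-05). Replicate 4 was highest for Notch3 and for the vessel wall sum, which itself includes Notch3. Replicate 2 was highest for Notch4, Dll4 and the endothelial sum. What part vessel cells had in these values was not tested. Heyl, a target of Notch, measured 30.1, 328 and 98.3 CPM in the Id2-labelled libraries and 3.03, 11.4 and 4.25 CPM at Iw4 (-3.97 ± 0.58 (SE), adjusted p = 1.84e-06). With replicates 2, 4 and 6 as the only Id2 library the median of the list was -0.29, -1.19 and 0.08. Without replicate 4, 4 members were called lower, and in the fit of the 6 libraries no member was called in either direction.

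Of 32 genes of the TGF-β and BMP pathway 11 fell and 2 rose, with a median of -0.94. Bmp7, a BMP ligand, measured 0.312, 4.36 and 5.49 CPM in the Id2-labelled libraries and 82.9, 65.5 and 128 CPM at Iw4 (4.65 ± 0.46 (SE), adjusted p = 1.30e-09), and Fst, the activin inhibitor follistatin, 0.937, 34.1 and 42.2 CPM in the Id2-labelled libraries and 132, 56.7 and 117 CPM at Iw4 (2.76 ± 0.80 (SE), adjusted p = 0.00802). Both rose with no overlap. Eng, an endothelial receptor of the pathway, fell (2052, 156 and 141 CPM in the Id2-labelled libraries and 13.7, 29.3 and 19.0 CPM at Iw4, -4.11 ± 0.76 (SE), adjusted p = 7.55e-05), as did the ligand Bmp6 (40.9, 22.7 and 18.6 CPM in the Id2-labelled libraries and 0.535, 0.807 and 1.31 CPM at Iw4, -3.86 ± 0.59 (SE), adjusted p = 4.39e-06), Inhba, a subunit of activin (15.5, 287 and 55.3 CPM in the Id2-labelled libraries and 2.32, 7.13 and 3.76 CPM at Iw4, -3.67 ± 0.84 (SE), adjusted p = 8.97e-04), and the receptor gene Tgfbr2 (301, 287 and 816 CPM in the Id2-labelled libraries and 58.1, 71.0 and 76.3 CPM at Iw4, -2.58 ± 0.34 (SE), adjusted p = 3.05e-07). Without replicate 2 the list had 1 member higher, and without replicate 6 it had 3. Eng was highest in replicate 2, Inhba in replicate 4 and Tgfbr2 in replicate 6.

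In the IGF axis 4 of 16 members rose and 7 fell, with a median of -1.12. Igf1, the ligand, measured 555, 224 and 1788 CPM in the Id2-labelled libraries and 9.63, 28.2 and 36.3 CPM at Iw4 (-4.74 ± 0.91 (SE), adjusted p = 1.21e-04) and Igf2r, the receptor that clears IGF2, 511, 380.1 and 332 CPM in the Id2-labelled libraries and 118, 123 and 107 CPM at Iw4 (-1.78 ± 0.19 (SE), adjusted p = 7.95e-09). Grb10, an imprinted adaptor that restrains the receptors, measured 213, 129 and 287 CPM in the Id2-labelled libraries and 6.60, 14.7 and 16.7 CPM at Iw4 (-3.97 ± 0.41 (SE), adjusted p = 2.84e-09). Igf2r, Grb10 and Igfbp7, described next, were called in the fit of the 6 libraries too. Pappa, a protease that frees IGF from its binding proteins, rose (2.65, 18.1 and 16.3 CPM in the Id2-labelled libraries and 167, 109 and 257 CPM at Iw4, 3.98 ± 0.68 (SE), adjusted p = 2.24e-05), as did Igfbp3 (50.4, 14.7 and 18.6 CPM in the Id2-labelled libraries and 94.5, 115 and 202 CPM at Iw4, 2.38 ± 0.52 (SE), adjusted p = 5.24e-04) and Igfbp2 (0.781, 20.3 and 55.3 CPM in the Id2-labelled libraries and 59.5, 79.7 and 182 CPM at Iw4, 2.90 ± 0.77 (SE), adjusted p = 0.00389). Binding proteins did not move as a group, since Igfbp7, which vessels also make, fell (1841, 1524 and 793 CPM in the Id2-labelled libraries and 73.3, 119 and 114 CPM at Iw4, -3.70 ± 0.51 (SE), adjusted p = 5.93e-07) and so did Igfbp4 (498, 223 and 451 CPM in the Id2-labelled libraries and 44.2, 79.5 and 88.8 CPM at Iw4, -2.42 ± 0.55 (SE), adjusted p = 7.92e-04). Without replicate 2, 2 members were called higher.

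Lysophosphatidic acid (LPA) is a lipid signal made outside cells by the enzyme Enpp2 and read by a family of receptors. Of 10 genes of this axis 3 rose and 2 fell, with a median of 0.12, which was 0.64, -0.24 and -0.23 without Id2 replicates 2, 4 and 6 in turn and -0.84, 0.03 and 0.67 with each of them as the only Id2 library. Lpar3 was at 0 in all libraries labelled Id2 basal and at 2.32, 1.34 and 3.27 CPM at Iw4, at least 4.77-fold higher against that floor, and Lpar5 was at 0 and at 4.10, 1.75 and 5.56 CPM, at least 7.84-fold higher. Both are low genes, and Lpar3 was called (adjusted p = 8.18e-05) on 13, 10 and 20 reads at Iw4. Lpar2 measured 0.312, 1.55 and 0.646 CPM in the Id2-labelled libraries and 8.38, 15.2 and 9.32 CPM at Iw4 (2.72 ± 0.44 (SE), adjusted p = 1.08e-05). In contrast Lpar1 was lower at Iw4 (8.59, 52.3 and 225 CPM in the Id2-labelled libraries and 3.03, 4.44 and 5.56 CPM at Iw4, -3.22 ± 0.71 (SE), adjusted p = 6.12e-04) and highest in replicate 6, and Lpar4 was lower as well (10.5, 2.42 and 9.86 CPM in the Id2-labelled libraries and 1.43, 1.21 and 1.47 CPM at Iw4, -1.67 ± 0.39 (SE), adjusted p = 0.00109). Without replicate 6 neither was called, and without replicate 2 Lpar4 was not. In the fit of the 6 libraries no gene of the axis was called, higher or lower.

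Among EGF ligands and their receptors 3 of 14 rose and 1 fell, with a median of 0.54. Nrg1, the ligand neuregulin 1, measured 2.50, 4.55 and 18.7 CPM in the Id2-labelled libraries and 64.4, 47.7 and 87.0 CPM at Iw4 (3.17 ± 0.64 (SE), adjusted p = 2.43e-04) and Areg, amphiregulin, 2.34, 1.36 and 0.323 CPM in the Id2-labelled libraries and 48.1, 19.1 and 5.56 CPM at Iw4 (3.09 ± 0.79 (SE), adjusted p = 0.00267), while Ereg, epiregulin, fell (6.71, 148 and 109 CPM in the Id2-labelled libraries and 5.88, 2.55 and 7.19 CPM at Iw4, -3.10 ± 0.81 (SE), adjusted p = 0.00336) although replicate 2 lay inside the Iw4 range. Nrg2 rose from the floor to 5.70, 2.15 and 3.43 CPM, at least 7.76-fold. Of 20 angiogenesis ligands 3 rose and 5 fell, with a median of -0.35, which turned to 0.22 with replicate 2 as the only Id2 library, and in the fit of the 6 libraries 1 was called, lower. Pdgfc, a platelet-derived growth factor, measured 20.8, 33.5 and 9.21 CPM in the Id2-labelled libraries and 117, 156 and 146 CPM at Iw4 (2.82 ± 0.34 (SE), adjusted p = 4.66e-08) and Angpt2, an angiopoietin made by vessels, 160.0, 135 and 33.5 CPM in the Id2-labelled libraries and 0.535, 5.38 and 14.7 CPM at Iw4 (-4.09 ± 0.69 (SE), adjusted p = 1.87e-05). Pdgfd fell (41.7, 33.4 and 40.4 CPM in the Id2-labelled libraries and 4.28, 6.05 and 4.09 CPM at Iw4, -2.78 ± 0.36 (SE), adjusted p = 2.71e-07) and was even across the Id2 libraries, whereas Vegfd and Sema3a fell by 3.99 and 3.58 on the log2 scale with replicate 6 the highest. Without replicate 4, 5 members of the list were called higher.

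Genes that respond to stress within minutes, and which sorting itself can induce, were mostly not called. Of 25, 3 fell (Fosl2, Ier5 and Jund) and none rose, with a median of -0.33, and without replicate 2 1 was called lower. Fosl2 measured 1185, 1679 and 863 CPM in the Id2-labelled libraries and 331, 461 and 453 CPM at Iw4 (-1.54 ± 0.32 (SE), adjusted p = 2.77e-04), and Fos measured 652, 1007 and 896 CPM in the Id2-labelled libraries and 1730.4, 2408 and 2544 CPM at Iw4 (1.39 ± 0.51 (SE), adjusted p = 0.0352), higher in every Iw4 library but short of the threshold.

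The change was also measured in luminal cells of the same sorts. In them 749 genes (4.39%) were called higher and 1046 (6.12%) lower at Iw4. The test of the difference between the 2 changes called 497 genes (2.91%) whose change in the libraries labelled basal (the basal change) was above the luminal one and 205 (1.20%) whose basal change was below it, and the Id2 side of every basal change is the 3 libraries whose markers go against the label. With the sort as a block, since both libraries of a sort come from the same pool of mice, the counts were 713 and 395. Of the 20 basal identity genes 12 were called above, and none below, and of the 21 contractile genes 3 were above (Cnn1, Smtn and Lmod1). Lysosomal genes, of which 15 fell in luminal libraries and 6 in those labelled basal, were called above in 4 cases.

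Oxtr showed the widest difference between the basal and luminal changes. Its luminal values were 15.6, 27.1 and 49.6 CPM at Id2 and 9.15, 21.8 and 29.6 CPM at Iw4, a change of -0.58 ± 0.78 that was not called, and the difference of the changes was 6.57 ± 1.10 (SE), adjusted p = 8.62e-05. Trp63 had a luminal change of 0.00 ± 0.68 (difference 5.60 ± 0.96 (SE), adjusted p = 1.14e-04). Wif1 had a luminal change of 1.57 ± 0.46 (difference 6.48 ± 0.66 (SE), adjusted p = 2.64e-08), and 1500015O10Rik rose in luminal cells as well, by 1.99 ± 0.44 (difference 5.84 ± 0.62 (SE), adjusted p = 5.00e-08). The basal change of each of these was several log2 units larger. Chil1 rose in the libraries labelled basal, while its luminal values of 330.0, 124 and 275 CPM at Id2 and 107, 339 and 19.4 CPM at Iw4 overlapped (difference 6.00 ± 0.87 (SE), adjusted p = 1.01e-05). Fermt1, an activator of integrins, rose in the libraries labelled basal (4.22, 17.7 and 2.26 CPM in the Id2-labelled libraries and 71.8, 89.8 and 100.04 CPM at Iw4) and fell in luminal cells, from 37.3, 146 and 60.4 to 23.2, 14.5 and 13.4 CPM (difference 5.68 ± 0.71 (SE), adjusted p = 8.78e-07).

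Of the 6 genes named for a basal change below the luminal one, 5 rose in luminal libraries and 2 fell in those labelled basal. Piezo2, a mechanically gated channel, measured 2.57, 0.936 and 2.64 CPM at Id2 and 81.4, 59.7 and 26.1 CPM at Iw4 in luminal cells and 22.3, 23.7 and 28.1 and 16.8, 11.3 and 4.90 CPM in the libraries labelled basal (difference -5.37 ± 0.86 (SE), adjusted p = 4.12e-05). Abcc8, a subunit of potassium channels, went from 0, 0.374 and 0 to 61.2, 38.9 and 19.2 CPM in luminal cells and from 2.34, 4.75 and 0.808 to 10.3, 1.88 and 1.31 CPM in the libraries labelled basal (difference -4.68 ± 0.97 (SE), adjusted p = 0.00134). Neither basal change was called. Agtr1a, an angiotensin receptor, and the secreted protein gene C1qtnf1 differed by -4.62 and -4.34 and their basal changes were not called either. Egflam, a matrix protein, rose in luminal libraries and fell in those labelled basal (31.1, 62.0 and 118 CPM in the Id2-labelled libraries and 6.42, 7.80 and 7.36 CPM at Iw4), a difference of -4.96. Col8a1, a collagen of vessels, fell in the libraries labelled basal (145, 453 and 1853 CPM in the Id2-labelled libraries and 59.4, 81.1 and 13.9 CPM at Iw4), highest in Id2 replicate 6, and was not called in luminal ones, a difference of -5.18.

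**Figure D5:**
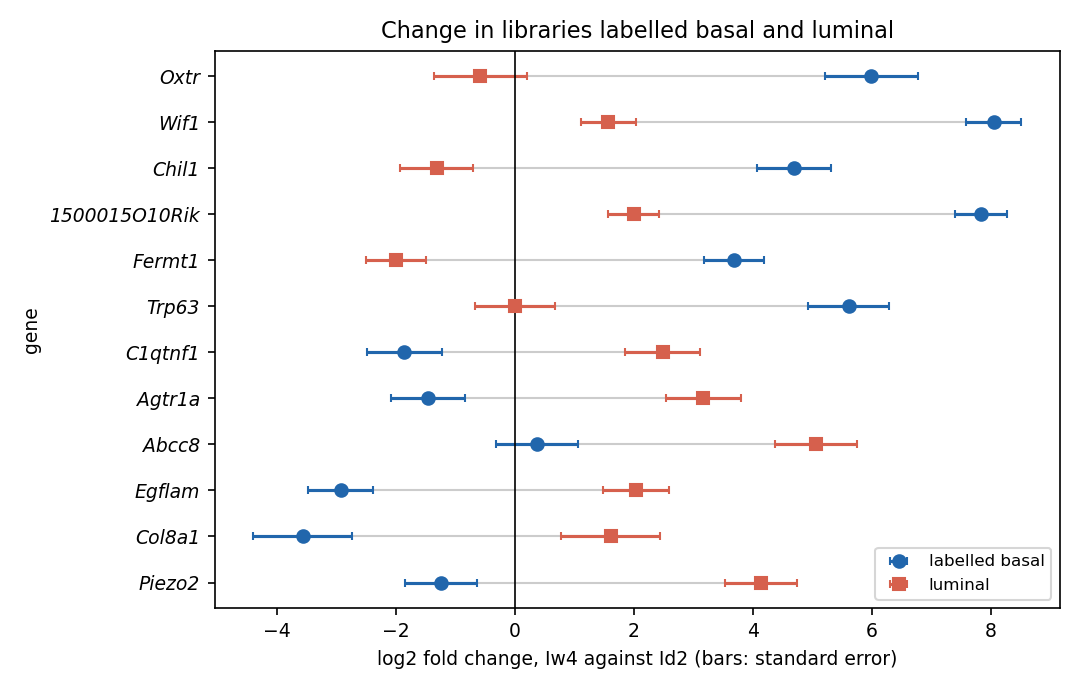
Log2 fold change from Id2 to Iw4 in libraries labelled basal (circles) and luminal (squares) for the 12 genes with the largest called difference between these changes, with bars of 1 standard error from the fit of all libraries (3 libraries in each group). The basal circle lies to the right for 6 genes, from Trp63 with 5.61 against 0.00 to Oxtr with 5.99 against -0.58, and to the left for 6, from C1qtnf1 to Piezo2.

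Basal libraries of non-pregnant mice at W10 come from the same RNA amplification batch as the libraries labelled Id2 basal, although from another lane. Against the same Id2 libraries 1465 genes (8.58%) were higher and 1500 (8.78%) lower at W10. Both comparisons share the Id2 libraries, so their likeness is not independent evidence, and their values are set side by side. Krt5 measured 1879, 1469 and 1997 CPM at W10 and 1447, 1828 and 1666 CPM at Iw4. Oxtr measured 1133, 1459.7 and 2403 and 572, 1046 and 789 CPM, and Col1a1 57.8, 21.4 and 59.1 and 76.3, 146 and 535 CPM. Of the 20 basal identity genes 16 were called higher at W10 than at Id2, and of the 30 fibrillar collagen genes 21 were called lower and 3 higher.

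Iw4 basal libraries were also set against basal libraries of non-pregnant mice of 4 months, with which they share lane 7 and batches 1, 2 and 3. A single gene (0.00586%) was called, in a fit that did not pair the libraries by batch. Tmem215, which encodes a transmembrane protein, measured 0, 0 and 0.49 CPM at Iw4 and 2.14, 1.56 and 3.35 CPM at M4 (-1.52 ± 0.21 (SE), adjusted p = 2.01e-04), at or under the floor at Iw4. At an unadjusted p under 0.05, 203 genes were higher and 119 lower at Iw4, and edgeR called none. Krt5 measured 1945, 2067 and 1293 CPM at M4, Acta2 9303, 5251 and 5891 CPM and Wif1 462, 261 and 210.3 CPM, and for these 3 genes the groups overlapped.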

How the data were processed

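RNA of sorted cells from pools of FVB/N mice was amplified and sequenced by the authors, aligned by GSNAP to mouse build mm9, assigned to genes with HTSeq and normalized with edgeR. The deposited values are a normalized signal: read counts divided by the effective library size (depth times edgeR factor) and set per 1e06 reads, called CPM here. They cover 17078 genes in 46 of 47 described samples, after the authors removed low genes, a few very abundant ones and 1 pregnancy library. The values are not divided by gene length, so levels are not compared between genes. Gene names came from RefSeq tables (16897 of 17078 identifiers matched). The steps between low values gave whole reads for 100% of values in all 46 libraries (tolerance 0.01 reads), from which depths were taken. The edgeR fit used 45 of them, because the reads of 1 luminal library of week 10 did not pass a separate check of the steps.

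Values were analysed as log2(CPM + 1) with limma 3.58.1 (R 4.3.3), a model of 16 conditions over all 46 libraries, in place of counts since the deposited values are not counts. Genes were called at a Benjamini-Hochberg false discovery rate under 0.01 and at least 2-fold. The difference between labelled cell types was an interaction contrast. p-values are limma's over all genes, two-sided. Alternatives were fits of the compared groups only, edgeR 4.0.16 (quasi-likelihood) on recovered reads, other pseudocounts, scaling, filters and weights, the sort as a block, and each library left out. Each Id2 library as the only one of its group was added after the values were seen, with the spread taken from the other conditions. The fits were tested on simulated counts with known changes, 4-fold in 100 genes and 16-fold in 100 others. Of 4-fold changes, the fit of all libraries recovered 53% and that of the 6 libraries 55%. Both recovered 100% of 16-fold changes, and neither made a false call. The simulated counts had the same spread in every group. In the data the median SD of a gene was 0.474 in the libraries labelled Id2 basal and 0.256 at Iw4. The simulation therefore cannot show how often either fit calls falsely in these data.

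Id2 and Iw4 basal samples share no mice, so they were not paired. Luminal and basal libraries of 1 sort share a pool of mice, and in 21 of 22 sorts their deviations from the group means correlated above 0 (median r = 0.31). Libraries were picked by label, but these members (the choice of comparison) and the gene lists were chosen with earlier results of these data known. Named genes were list members, the 12 called genes per direction with the largest gap between groups, the 8 with the largest fold change without overlap, the 6 per direction with the largest difference between labelled cell types, and up to 5 per direction against M4, and 1 gene of these is not reported here. Promoters are from RefSeq GRCm38.p6, and no coordinates of mm9 were used.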

Additional observations from a re-analysis of the deposited data

Results flagged for a closer look

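The change from Id2 to Iw4 differed between the libraries labelled basal and the luminal ones, by the interaction term of the limma fit, for 497 genes with the basal change above the luminal one and for 205 with the basal change below it. Among the named genes the difference of log2 changes was 6.57 for Oxtr, 6.48 for Wif1, 6.00 for Chil1, 5.84 for 1500015O10Rik, 5.68 for Fermt1 and 5.60 for Trp63 on the positive side. On the negative side it was -5.37 for Piezo2, -5.18 for Col8a1, -4.96 for Egflam, -4.68 for Abcc8, -4.62 for Agtr1a and -4.34 for C1qtnf1. Fitted on the 12 libraries compared, the counts were 199 and 41, and with edgeR 288 and 148. The basal side of every one of these values rests on the 3 libraries labelled Id2 basal, whose endothelial markers summed to 22157 CPM in replicate 2 and fibroblast markers to 74476 CPM in replicate 6. The luminal side held such markers too. Fibroblast markers summed to 236, 511 and 5367 CPM in luminal libraries of Id2 replicates 2, 4 and 6. In those of Iw4 replicates 3, 5 and 6 they summed to 79.0, 181 and 445 CPM. What part other cell types had in the differences, on either side, was not tested.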

How the results depend on the processing

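Fitted on the compared groups only, calls fell to 185 higher and 105 lower for Iw4 against the libraries labelled Id2 basal, to 638 for luminal cells (from 1795), to 240 for the difference between labelled cell types (from 702) and to 467 for W10 against Id2 (from 2965). With Id2 replicate 4 as the only library of its group 628 genes were called higher and 976 lower, and with replicate 6 alone 926 were called higher. With 1 library left out in turn the basal comparison gave 1063 to 1328 genes higher and 1191 to 1552 lower, luminal cells 1283 to 1429 genes, the difference between labelled cell types 523 to 895, W10 against Id2 2255 to 2892 and Iw4 against M4 1 to 3. For the difference between labelled cell types edgeR on recovered reads called 436 genes, a false discovery rate under 0.05 gave 1465, and the sort as a replicate block gave 1108, while the block changed no other count by over 1.5 times. For Iw4 against M4, genes with a mean of at least 5 CPM, edgeR and the compared groups alone gave 0 calls and array weights gave 3. The median change of the contractile apparatus turned to -0.82 with Id2 replicate 4 as the only library of its group those of the Notch pathway and of cell death regulators to 0.083 and 0.098 with replicate 6 alone, that of angiogenesis ligands to 0.22 with replicate 2 alone, that of the LPA axis to values from -0.84 to 0.67 with 1 Id2 library alone, -0.19 with edgeR and -0.50 over genes with a mean of at least 5 CPM, that of Schwann cell markers to -0.096 with replicate 6 alone and that of mitosis genes, 0.0063, to values from -0.88 to 0.97 with 1 Id2 library alone, while among named genes Acta2 turned to -0.25, Lmod1 to -0.49 with replicate 4 alone and Itgb4 to -2.06 with replicate 2 alone, and the cause was not tested. The other pseudocount, scaling, filter and weight settings left the 2 basal counts within 1.5 times of 1391 and 1583. Of the 186 genes named in the text 153 were called for Iw4 against the libraries labelled Id2 basal, and calls were lost for 116 in the fit of the 6 libraries, for 42, 57 and 42 with Id2 replicates 2, 4 and 6 as the only library of their group, for 14 with edgeR, for 20 with array weights, for 18 with a pseudocount of 0.1 and for 18 to 24 with 1 library left out, while median-ratio scaling changed none. At 7382662 to 11204244 reads at Id2 and 4398806 to 5763600 at Iw4, genes under about 0.5 CPM could not be told from 0.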

Other observations

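Basal libraries of lactation held levels of some of the named genes unlike those of Iw4. Wif1, at 269 to 389.5 CPM in the Iw4 libraries, measured 8.36 to 27.2 CPM in 3 basal libraries of lactation day 3 and 5.32 to 20.2 CPM in 2 of lactation day 10, and was at or near 0 in the libraries labelled Id2 basal. Il6 measured 49.2 to 136 CPM at lactation day 3 and 347 to 367 CPM at day 10, between the Iw4 values near 26.2 CPM and the 760.0 to 2489 CPM of Id2. Oxtr was higher in lactation than at Iw4, with 1486 to 4323 CPM at day 3 and 2652 to 2932 CPM at day 10, and Acta2 as well, with 12014 to 29688 CPM and 16996 to 17766 CPM. Trp63 stayed within 457 to 755 CPM in these 5 libraries, beside at most 26.6 CPM at Id2. These values are given as a description, with no test.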
